A study of Mus musculus with 12 samples.

Results

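The 10 genes described here build and operate the hair bundle, the group of stereocilia on a sensory hair cell that turns deflection by sound into an electrical current. They are Myo7a, Cdh23, Pcdh15, Ush1c, Ush1g, Tmc1, Tmie, Lhfpl5, Cib2 and Clrn1. They were chosen by gene symbol from the 23949 genes that could be read in a table of RNA-seq values of whole mouse cochleae, and all 10 were found. The table holds FPKM, the number of sequenced fragments scaled to transcript length and to the total mapped in a library, for 12 libraries in 4 groups of 3. The groups were Dusp1-/- mice (KO) at 5 months (E7, F18 and F19), wild-type mice (WT) at 5 months (E1, E3 and E4), KO at 8 months (F5, F6 and F27) and WT at 8 months (F1, F10 and F12), where a letter and a number are the animal code of a library. All 4 groups share a mixed 129S2/SvPas:C57BL/6 background, and the labels give no treatment. C57BL/6 mice are known to carry an allele of Cdh23 linked to age-related hearing loss, and the sources used here do not name the Cdh23 alleles of these animals. The sources used here also do not say how the null allele was made, how many animals gave a library, or whether KO and WT were littermates, so the p-values below measure the spread between these libraries.

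In a stereocilium, the tip link joins the top of a shorter stereocilium to the side of a taller neighbour. Cadherin 23 (Cdh23) forms the upper part of the link and protocadherin 15 (Pcdh15) the lower part. At the upper end the link is held by the motor myosin VIIa (Myo7a) with the scaffold proteins harmonin (Ush1c) and Sans (Ush1g), and at the lower end it pulls on a channel complex that contains TMC1, TMIE, LHFPL5 and CIB2. Clarin 1 (Clrn1) is a membrane protein of hair bundles and of hair cell synapses. Loss of most of these genes causes deafness in mice and humans, in several cases as Usher syndrome, in which vision is lost as well. Hair cells are few among the cells of a cochlea, and in RNA of whole tissue, fewer hair cells and less RNA per hair cell cannot be told apart.

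Libraries were compared without further scaling, and their FPKM add up to between 501193 and 583700. Depth is unknown because FPKM hold no read numbers. Dusp1 itself measured 61.9, 81.5 and 75.3 FPKM in KO, against 60.8, 47.6 and 29.5 in WT at 5 months, and 55.6, 73.7 and 57.1 in KO and 43.0, 38.3 and 38.6 in WT at 8 months. The gene was thus not lower in the libraries labelled KO, and a single FPKM per gene does not tell a disrupted transcript from an intact one, so every direction below rests on the labels. Xist put females at 0 of 3 in KO and 1 of 3 in WT at 5 months, and at 2 of 3 in KO and 1 of 3 in WT at 8 months. Some libraries stood apart in markers of other cells. E1 held 43.0 FPKM of the cerebellar gene Gabra6, against at most 0.266 in the other 11, and markers of neutrophils summed to 4089 to 22592 FPKM in KO and 67.4 to 651 in WT at 5 months. Markers of the vestibular epithelium, the balance organ next to the cochlea that has hair cells of its own, were uneven among libraries and are given with the results they move with. All 12 hair cell identity genes, which include the synaptic gene Otof and the transcription factor gene Pou4f3, were detected in every library.

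The 10 genes differed widely in level. Over all 12 libraries, Cib2 averaged 60.0 ± 12.2 FPKM (SD, n = 12) and Ush1c 21.0 ± 6.82, followed by Lhfpl5 at 8.08 ± 1.45, Tmie at 7.41 ± 0.914, Myo7a at 4.74 ± 1.26, Clrn1 at 3.65 ± 0.494 and Tmc1 at 3.46 ± 0.785. Cdh23 at 1.04 ± 0.139, Pcdh15 at 0.955 ± 0.198 and Ush1g at 0.725 ± 0.182 were lowest. FPKM are per transcript length, so these levels can be set side by side, with the limit that they depend on the transcript models. The deposited annotation gives Cib2 736 bases of exon and Pcdh15 15987, the shortest and the longest of the 10. Neighbours in this order were not always apart. Lhfpl5 lay above Tmie in 9 of 12 libraries, Myo7a above Clrn1 in 9, Clrn1 above Tmc1 in 7, Cdh23 above Pcdh15 in 8 and Pcdh15 above Ush1g in 10, while Cib2 above Ush1c, Ush1c above Lhfpl5, Tmie above Myo7a and Tmc1 above Cdh23 held in all 12. Of all genes in the table, 6.22% were more abundant than Cib2 and 65.7% more abundant than Ush1g. The order of the group means was the same in all 4 groups for the first 4 genes. Myo7a came next, above Clrn1 and Tmc1, in KO at 5 months, in KO at 8 months and in WT at 8 months, and stood below both in WT at 5 months.

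**Figure D1:**
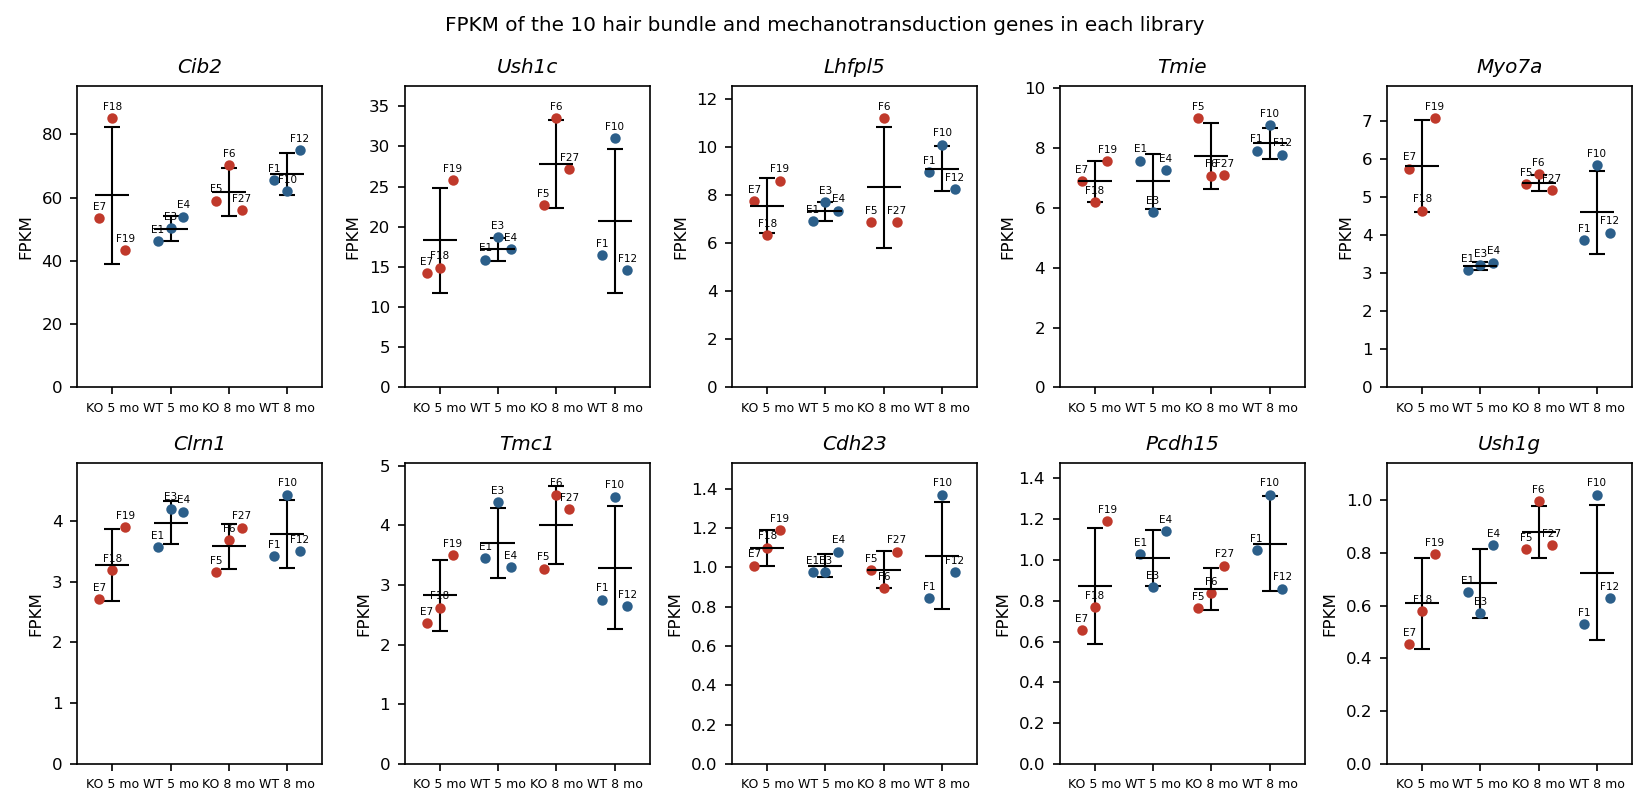
FPKM (y axis, from 0) of each of the 10 genes in each library, for KO and WT at 5 months and KO and WT at 8 months (x axis). Points are libraries named by animal code, the horizontal line is the group mean and the bar is ± SD (n = 3). Myo7a in WT at 5 months sits at 3.07 to 3.27, below all 9 other libraries, and F10 is the highest WT library at 8 months for 9 of the 10 genes.

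In mouse build mm9, which the authors used, the genes lie on 7 chromosomes. The tip link genes are both on chromosome 10, Cdh23 at chr10:59765498-60159238 on the minus strand over 69 exons and Pcdh15 at chr10:73284615-74112477 on the plus strand over 40 exons. Of the anchor genes, Myo7a lies at chr7:105199564-105268003 and Ush1c at chr7:53450721-53493860, both on the minus strand, and Ush1g at chr11:115176506-115183232 on the minus strand. Tmc1 is at chr19:20857948-21028692, Tmie at chr9:110768550-110782587, Cib2 at chr9:54393159-54407886 and Clrn1 at chr3:58647950-58689134, all on the minus strand. Lhfpl5, at chr17:28712664-28720538 on the plus strand, is the only member on the chromosome of Dusp1, 2.07 Mb from it. Libraries were made with a kit that keeps the strand, and the sources used here do not say whether counting used it. No member shares exon bases with another gene in the annotation, although Ush1g overlaps Otop2 (0.0244 FPKM) on the opposite strand. Cdh23 holds the immune checkpoint gene Vsir (listed as 4632428N05Rik, 11.6 FPKM, matched through RefSeq synonyms) on the opposite strand within its span and ends 150 bases from Psap, a lysosomal gene at 795 FPKM on the opposite strand. Tmie lies 91 bases from Als2cl (10.5 FPKM) and Cib2 332 bases from Sh2d7 (1.99 FPKM), each on the opposite strand.

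Sequences just upstream of the transcription start are shown for 4 members that the results below turn on. They are Myo7a, the member with the largest genotype difference, Tmc1, and Ush1c and Clrn1, which each moved with Tmc1 between libraries by Pearson r. Ush1c with Clrn1 did not pass the threshold as a pair. Each is the window of 250 bases before the start, from RefSeq (GRCm38.p6), 5′ to 3′ on the gene's own strand, and each was found once in mm9, directly next to the start of the gene in the deposited annotation. The mm9 positions are chr7:105268004-105268253 for Myo7a, chr7:53493861-53494110 for Ush1c, chr19:21028693-21028942 for Tmc1 and chr3:58689135-58689384 for Clrn1, all on the minus strand. Capitals mark GGGCGG on either strand (written CCGCCC on the other), the GC box bound by SP family factors.
Myo7a: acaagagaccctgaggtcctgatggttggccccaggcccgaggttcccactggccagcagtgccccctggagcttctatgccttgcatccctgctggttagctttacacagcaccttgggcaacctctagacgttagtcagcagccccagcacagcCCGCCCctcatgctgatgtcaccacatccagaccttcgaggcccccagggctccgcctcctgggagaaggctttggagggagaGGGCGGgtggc
Ush1c: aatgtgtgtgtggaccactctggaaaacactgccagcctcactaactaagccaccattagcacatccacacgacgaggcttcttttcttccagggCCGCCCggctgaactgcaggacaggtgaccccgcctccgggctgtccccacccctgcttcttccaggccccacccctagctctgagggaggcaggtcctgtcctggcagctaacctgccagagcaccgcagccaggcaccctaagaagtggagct
Tmc1: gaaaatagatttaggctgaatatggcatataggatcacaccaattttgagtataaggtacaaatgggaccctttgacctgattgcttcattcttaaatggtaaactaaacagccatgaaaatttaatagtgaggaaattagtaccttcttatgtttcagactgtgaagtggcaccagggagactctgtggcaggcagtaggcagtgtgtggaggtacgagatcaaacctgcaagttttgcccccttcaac
Clrn1: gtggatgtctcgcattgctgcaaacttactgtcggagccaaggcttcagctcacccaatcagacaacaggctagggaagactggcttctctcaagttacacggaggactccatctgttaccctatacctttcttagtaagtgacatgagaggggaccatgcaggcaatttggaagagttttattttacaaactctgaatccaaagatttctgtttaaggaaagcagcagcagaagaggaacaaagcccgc
The table held 9 of the 10 members, without Ush1g, and Myo7a had a further start inside the gene. GGGCGG or CCGCCC was present in 5 of the 10 member windows and in 32.7% of all 32851 windows in the table, and it was present in the first Myo7a window and the Ush1c window but in neither that of Tmc1 nor that of Clrn1. The GC content was 63.2% for Myo7a, 61.2% for Ush1c, 46.4% for Clrn1 and 41.2% for Tmc1, with a median of 52.4% over all windows. The E-box CAGCTG, searched likewise, was in 2 of the 10 member windows (Tmie and Lhfpl5) and in 13% of all, and TAATTA, a core that homeodomain factors bind, was in 0 of the 10 and in 4.84% of all. TATAAA or its reverse TTTATA was in 1, that of Pcdh15, and in 12.4% of all. The 4 windows shown held none of the other 3 motifs.

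For KO against WT, the question was whether transcripts of the hair bundle and of its channel differed in cochleae of Dusp1-/- mice. At 5 months, 1 of the 10 genes stood clear of the WT range. Myo7a, the motor of the upper tip link end, was at 5.74, 4.64 and 7.06 FPKM in the KO libraries E7, F18 and F19, against 3.07, 3.21 and 3.27 in the WT libraries E1, E3 and E4. The groups did not overlap, with means of 5.81 ± 1.21 in KO and 3.18 ± 0.104 in WT (SD, n = 3 each). The change on the log2(FPKM + 0.5) scale was 0.76 ± 0.16 (SE of the fit, n = 3 libraries per group), with an exact two-sided permutation p of 0.1, the smallest that 3 against 3 can give. In the limma fit across 16277 genes its unadjusted p was 0.000741, rank 77 of all genes, and it did not pass adjustment (Benjamini-Hochberg adjusted p = 0.146). The WT libraries and E7 carry the code letter E, while F18 and F19 carry F, so genotype and letter overlap in part at this age. Only KO at 5 months held both letters, so a fit with the letter as a covariate sets E7 alone against the WT libraries. The Myo7a change was then 0.76. It rests on 1 KO library, the one with the highest level of neutrophil markers. At 5 months limma called 0 of the 10 members and 0.0676% of all genes (11 genes). Groups without overlap were found for 1 of 10 members and for 25.0% of all genes at this age, and with KO higher for 11.3%.

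The other anchor genes showed no such separation at 5 months. Ush1c, the scaffold harmonin, measured 14.2, 14.9 and 25.8 FPKM in KO, against 15.9, 18.7 and 17.2 in WT. Here 2 KO libraries lay below all WT libraries and F19 above them, for a change of 0.036 ± 0.29 (limma adjusted p = 0.966). Ush1g differed by −0.10 ± 0.20, with values of 0.454 to 0.794 FPKM in KO and 0.572 to 0.830 in WT. The tip link genes Cdh23 and Pcdh15 differed by 0.082 ± 0.15 and −0.15 ± 0.18, with values of 1.01 to 1.19 and 0.656 to 1.19 FPKM in KO and 0.977 to 1.08 and 0.867 to 1.14 in WT.

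Among the channel genes at 5 months, Tmc1, which encodes the pore-forming subunit of mature hair cells, measured 2.36, 2.62 and 3.5 FPKM in KO, against 3.45, 4.39 and 3.30 in WT. E7 and F18 lay below all WT libraries, F19 did not, and the change of −0.35 ± 0.21 was not past the threshold (limma adjusted p = 0.399). Tmie, needed to bring the channel to the stereocilia, and Lhfpl5, which couples protocadherin 15 to it, differed by 0.0015 ± 0.12 and 0.034 ± 0.18. Cib2, which encodes a calcium-binding partner of TMC1, measured 53.6, 85.1 and 43.3 FPKM in KO, against 46.3, 50.3 and 54.0 in WT. The KO libraries spread on both sides of the WT range, for a change of 0.22 ± 0.20 (limma adjusted p = 0.605). F18, the library with 85.1, also had the highest Otop1, 23.9 FPKM against 7.21 to 10.6 in the other libraries, and 134 FPKM of the muscle gene Ckm. E3, which had 207 FPKM of Ckm, was at 50.3 for Cib2, and the part of other tissue in the Cib2 value was not tested. Clrn1 differed by −0.26 ± 0.14 (limma adjusted p = 0.360), at 2.71, 3.19 and 3.90 FPKM in KO, against 3.57, 4.20 and 4.15 in WT, with F19 inside the WT range.

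**Figure D2:**
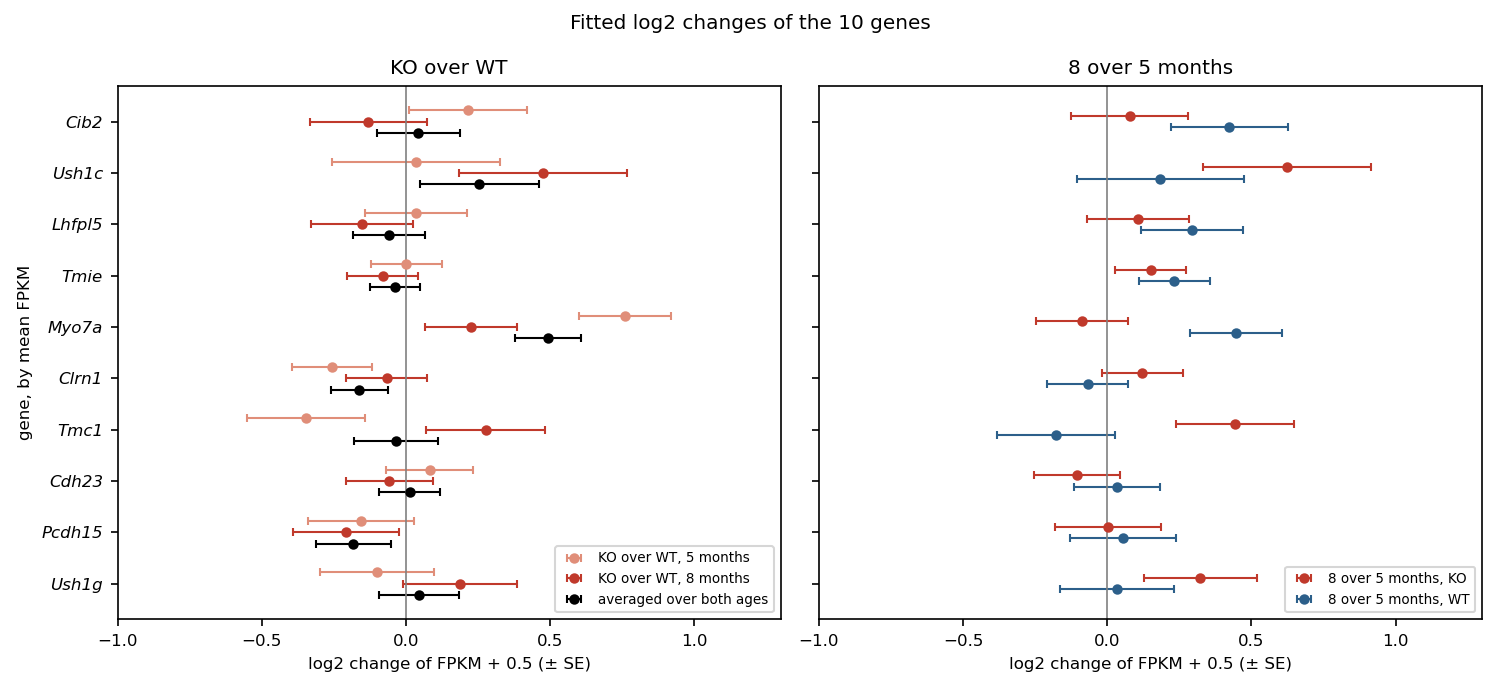
Log2 change of FPKM + 0.5 (x axis) of the 10 genes (y axis, by mean level) in the limma fit, with bars of ± SE. The left panel gives KO over WT at 5 months, at 8 months and averaged over both, and the right panel 8 over 5 months in KO and in WT. Myo7a at 5 months, at 0.76 ± 0.16, is the change farthest from 0 in the left panel.

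At 8 months no member separated the genotypes. Myo7a measured 5.34, 5.60 and 5.18 FPKM in KO, against 3.87, 5.83 and 4.06 in WT, where F10 lay above all KO libraries. Its change was 0.23 ± 0.16 (limma adjusted p = 0.965), with 0.39 without F10, 0.13 without F1 and 0.16 without F12, and 0.052 to 0.39 over the 27 alternatives. Ush1c had the largest change at this age, 0.48 ± 0.29 (limma adjusted p = 0.963), from values of 22.7, 33.5 and 27.2 FPKM in KO, against 16.5, 31.0 and 14.6 in WT. Again F10 was the WT library inside the KO range, and the other 2 WT libraries were below it. The change was 0.80 without F10 and 0.27 without F12. Tmc1 followed the same pattern, with 3.27, 4.51 and 4.27 FPKM in KO, against 2.75, 4.48 and 2.64 in WT, for a change of 0.28 ± 0.21 that was 0.49 without F10 and 0.16 without F12. The changes of the other 7 were 0.19 ± 0.20 for Ush1g, −0.057 ± 0.15 for Cdh23, −0.21 ± 0.18 for Pcdh15, −0.080 ± 0.12 for Tmie, −0.15 ± 0.18 for Lhfpl5, −0.13 ± 0.20 for Cib2 and −0.067 ± 0.14 for Clrn1. Limma called 0 of the 10 and 0.0123% of all genes (2 genes), and groups without overlap were found for 0 of 10 members and for 10.3% of all genes.

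Averaged over both ages, Myo7a was the member farthest from 0, with a log2 change of 0.49 ± 0.11 (unadjusted p = 0.00136, rank 169, adjusted p = 0.125). In an exact test that permuted genotype within each age (400 arrangements, smallest p 0.00500), Myo7a reached p = 0.02 and the other 9 members did not reach 0.05. This is 1 of 10 members, against 15.1% of all genes by the same test, and 5.44% of all genes with KO higher. The averaged changes of the other members were 0.013 ± 0.11 for Cdh23, −0.18 ± 0.13 for Pcdh15, 0.26 ± 0.21 for Ush1c, 0.044 ± 0.14 for Ush1g, −0.035 ± 0.15 for Tmc1, −0.039 ± 0.087 for Tmie, −0.060 ± 0.12 for Lhfpl5, 0.043 ± 0.14 for Cib2 and −0.16 ± 0.099 for Clrn1. Limma called 0 of 10 here, against 0.0799% of all genes (13 genes), and the 6 KO and 6 WT values did not overlap for 0 of 10 members and for 1.22% of all genes. The median change of the members was 0.018 at 5 months, −0.062 at 8 months and −0.011 averaged, beside −0.027, −0.0040 and −0.016 over all genes tested. By direction, 6 of the 10 were above 0 at 5 months and 4 at 8 months, beside 44.7% and 48.3% of all genes. The Myo7a change stayed between 0.62 and 0.91 at 5 months and between 0.38 and 0.58 averaged under all alternatives run, and the exact p over both ages stayed at or below 0.0350 in the 15 run for it.

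The genotype difference itself did not differ between ages past the threshold for any member. The KO change at 8 months minus that at 5 months was −0.53 ± 0.23 for Myo7a (unadjusted p = 0.0394, adjusted p = 0.876) and 0.62 ± 0.29 for Tmc1 (unadjusted p = 0.0570, adjusted p = 0.876). The others ran from −0.35 ± 0.29 for Cib2, −0.19 ± 0.25 for Lhfpl5, −0.14 ± 0.21 for Cdh23, −0.082 ± 0.17 for Tmie and −0.054 ± 0.26 for Pcdh15 to 0.19 ± 0.20 for Clrn1, 0.29 ± 0.28 for Ush1g and 0.44 ± 0.41 for Ush1c. Single libraries moved some of these, with Ush1c at 0.76 without F10 and 0.24 without F12, and Cib2 at −0.56 without F19 and −0.075 without F18. Limma called 0 of the 10, and 0.00614% of all genes (1 gene).

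For 8 against 5 months, libraries of the 2 ages carry different animal codes, and both age comparisons share libraries with the genotype comparisons above. In KO, 8 of 10 members were above 0, beside 53.2% of all genes. Limma called 0 of 10 and 0.00% of all genes (0 genes, with 2049 or 12.6% at an unadjusted p under 0.05, and 0 of 10 members by that rule). Ush1c was at 22.7, 33.5 and 27.2 FPKM in KO at 8 months and 14.2, 14.9 and 25.8 in KO at 5 months, a change of 0.62 ± 0.29 (limma adjusted p = 0.403) in which F19 overlapped the older libraries. Tmc1 differed by 0.44 ± 0.21 (limma adjusted p = 0.400) with the same overlap by F19. Ush1g was the member without overlap, at 0.815, 0.995 and 0.828 FPKM at 8 months and 0.454, 0.580 and 0.794 at 5 months, for a change of 0.32 ± 0.20 (limma adjusted p = 0.506, exact p = 0.1). Groups without overlap were found for 1 of 10 members and for 15.7% of all genes. The remaining changes were −0.088 ± 0.16 for Myo7a, −0.11 ± 0.15 for Cdh23, 0.0018 ± 0.18 for Pcdh15, 0.15 ± 0.12 for Tmie, 0.11 ± 0.18 for Lhfpl5, 0.077 ± 0.20 for Cib2 and 0.12 ± 0.14 for Clrn1.

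In WT, 4 of the 10 members were higher at 8 months in every library, beside 10.3% of all genes higher without overlap and 19.2% in either direction. They were Myo7a, at 3.87, 5.83 and 4.06 FPKM at 8 months and 3.07, 3.21 and 3.27 at 5 months (0.45 ± 0.16, unadjusted p = 0.0188, adjusted p = 0.631), and 3 channel genes. Cib2 was at 65.5, 62.1 and 75.0 FPKM at 8 months and 46.3, 50.3 and 54.0 at 5 months (0.42 ± 0.20, adjusted p = 0.632). Lhfpl5 was at 8.96, 10.1 and 8.25 FPKM at 8 months and 6.93, 7.71 and 7.35 at 5 months (0.29 ± 0.18, adjusted p = 0.639). Tmie was at 7.91, 8.76 and 7.78 FPKM at 8 months and 7.57, 5.85 and 7.25 at 5 months (0.23 ± 0.12, adjusted p = 0.639), so that the older libraries lay just above the younger. Each had an exact p of 0.1, the smallest possible, and limma called 0 of 10 and 0.0123% of all genes (2 genes). The Myo7a change was 0.28 without F10, and that of Tmie 0.13 without E3. The others differed by 0.034 ± 0.15 for Cdh23, 0.056 ± 0.18 for Pcdh15, 0.18 ± 0.29 for Ush1c, 0.035 ± 0.20 for Ush1g, −0.18 ± 0.21 for Tmc1 and −0.067 ± 0.14 for Clrn1. The 3 WT libraries at 5 months all carry the code letter E and the 3 at 8 months the letter F, a letter that no source used here explains, so in WT age and letter cannot be told apart. Markers of blood cells moved with age in WT as well. All 12 neutrophil markers were above 0 with a median log2 change of 2.34, 7 of them without overlap, and their mean level was 3.77 to 6.41 at 8 months and 1.34 to 3.65 at 5 months. All 8 B cell markers were above 0 with a median of 1.05, 3 of them without overlap. None of these 20 was called by limma, and their part in the result was not tested.

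Over both genotypes, with age permuted within each genotype, Tmie was the member with an exact p under 0.05 (0.19 on the log2 scale, p = 0.0450), which is 1 of 10 members against 15.7% of all genes. That p was not under 0.05 in 8 of 15 alternatives, those without E3, E4, E7, F18, F1, F10, F12 or F5, with a highest value of 0.140. Myo7a differed by 0.18 (exact p = 0.260), and 9 of the 10 members were above 0 with a median of 0.18, beside 53.4% of all genes above 0.

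Libraries of a group also differed from each other, and several of the 10 genes did so together. The mean standardized level of the 10, each gene scaled to its own mean and SD, was highest in F10 (WT, 8 months) at 1.35, followed by F6 at 0.61 and F27 at 0.27 (KO, 8 months), with F19 (KO, 5 months) at 0.49. It was lowest in E7 at −0.85 and F18 at −0.51, both KO at 5 months. F10 thus stood apart from F1 and F12, at −0.29 and −0.23, and F19 from E7 and F18. Ush1c, for example, was at 31.0 FPKM in F10 and at 16.5 and 14.6 in F1 and F12 of the same group.

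**Figure D3:**
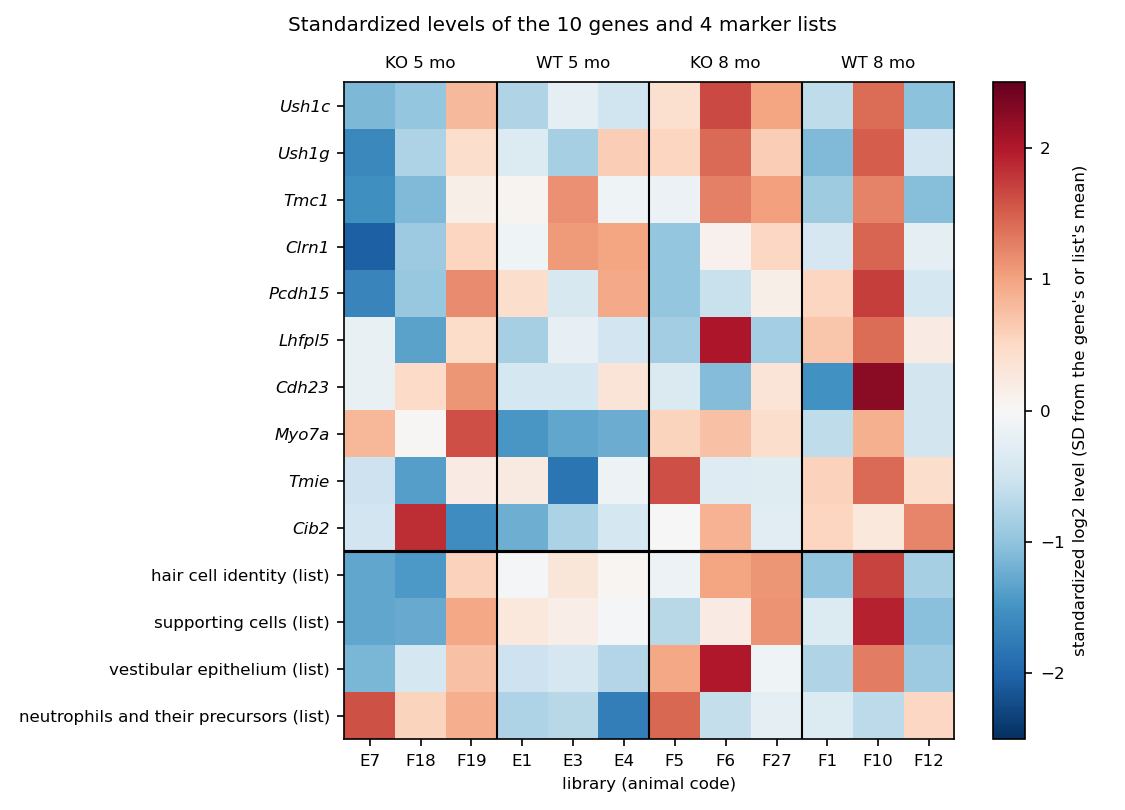
Standardized log2 level (colour, in SD from the mean of a gene or list over the 12 libraries) of the 10 genes and of 4 marker lists (y axis) in each library (x axis, by group, KO left of WT at each age). F10 is above the mean for all 10 genes and for the lists of hair cells, supporting cells and vestibular epithelium.

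Over the 12 libraries, Ush1c and Tmc1, the harmonin scaffold and the channel pore, were the pair that passed the threshold by both measures (Pearson r = 0.82, permutation p = 0.00219, adjusted p = 0.0328, and Spearman rho = 0.89, permutation p = 0.00025, adjusted p = 0.0112, adjusted over 45 pairs). Without the 2 libraries farthest from the median of Ush1c, r was 0.71, and after group means were subtracted it was 0.94. Within KO it was 0.97 and within WT 0.76. By r alone 4 of 45 pairs passed, the others being Ush1c with Ush1g (r = 0.87, permutation p = 0.00039, adjusted p = 0.0175, and rho = 0.78, permutation p = 0.00368, adjusted p = 0.0553), Tmc1 with Clrn1 (r = 0.78, permutation p = 0.00318, adjusted p = 0.0358, and rho = 0.79, permutation p = 0.00369, adjusted p = 0.0553) and Pcdh15 with Clrn1 (r = 0.79, permutation p = 0.00214, adjusted p = 0.0328, and rho = 0.76, permutation p = 0.00504, adjusted p = 0.0567). Without the 2 farthest libraries these r were 0.74, 0.77 and 0.56. Cib2 stood outside this group, with r below 0 in 7 of its 9 pairs.

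Myo7a had a higher r with Ush1c and with Tmc1 once group means were subtracted. With Ush1c its r was 0.58 over the 12 libraries (permutation p = 0.0521, adjusted p = 0.293, and rho = 0.41, permutation p = 0.193, adjusted p = 0.600), 0.57 without the 2 farthest libraries and 0.86 once group means were subtracted. With Tmc1 the corresponding r was 0.08 (permutation p = 0.797, adjusted p = 0.944, and rho = 0.13, permutation p = 0.682, adjusted p = 0.902), 0.36 without the 2 farthest and 0.73 with group means subtracted. In E7, for example, Myo7a was at 5.74 FPKM, the third highest of the 12, where Clrn1, Tmc1, Pcdh15, Ush1c and Ush1g each had their lowest value.

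The libraries high in these genes were also high in the mean of other hair cell transcripts and in vestibular markers. The mean log2 level of the 12 hair cell identity genes ran from 2.23 in F18 and 2.26 in E7 to 2.79 in F27 and 2.92 in F10, and over the 12 libraries it followed the mean standardized level of the 10 genes with r = 0.86 and rho = 0.84 (0.80 without the 2 farthest libraries, 0.94 with group means subtracted). Single genes of the list did not all do so. With the mean of the 10, Pou4f3 had r = 0.94 and Otof 0.89, while Slc26a5, the prestin gene of outer hair cells, had r = −0.34 and Ikzf2, a transcription factor gene of outer hair cells, −0.29. For the 4 vestibular genes r was 0.80 and rho 0.73 (0.69 without the 2 farthest libraries, 0.84 with group means subtracted), and for 9 supporting cell genes r was 0.82 and rho 0.72 (0.60 and 0.87). These are descriptions over the same 12 libraries, whose cell makeup differs and whose depth is unknown, and no test was made on the mean of the 10. Nox3, an oxidase gene of the vestibular epithelium, was at 11.2 FPKM in F19, 11.3 and 19.9 in F5 and F6 and 12.3 in F10, at 6.15 in F27, and at 0.662 to 2.35 in the other 7. Oc90 and Zpld1 were at 0.759 to 1.81 and 0.994 to 3.85 FPKM in F19, F10, F5 and F6 and at most 0.263 and 0.338 elsewhere, while no vestibular marker was at 0 in any library. The remaining vestibular gene, Otop1, did not follow this pattern. It was at 7.21, 7.59, 8.76 and 10.6 FPKM in F19, F10, F5 and F6, and highest in F18 at 23.9. The 4 genes together summed to 8.41 to 25.3 FPKM in KO and 10.6 to 12 in WT at 5 months, and to 14.2 to 36.2 in KO and 9.47 to 23.6 in WT at 8 months. The sum of 25.3 is that of F18, with 23.9 of it from Otop1. A fit with the vestibular level added was set up after seeing the values. In it Myo7a differed by 0.72 at 5 months, 0.052 at 8 months and 0.38 averaged, against 0.76, 0.23 and 0.49 without that level. Ush1c turned to −0.063 at 5 months, and no member was called.

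**Figure D4:**
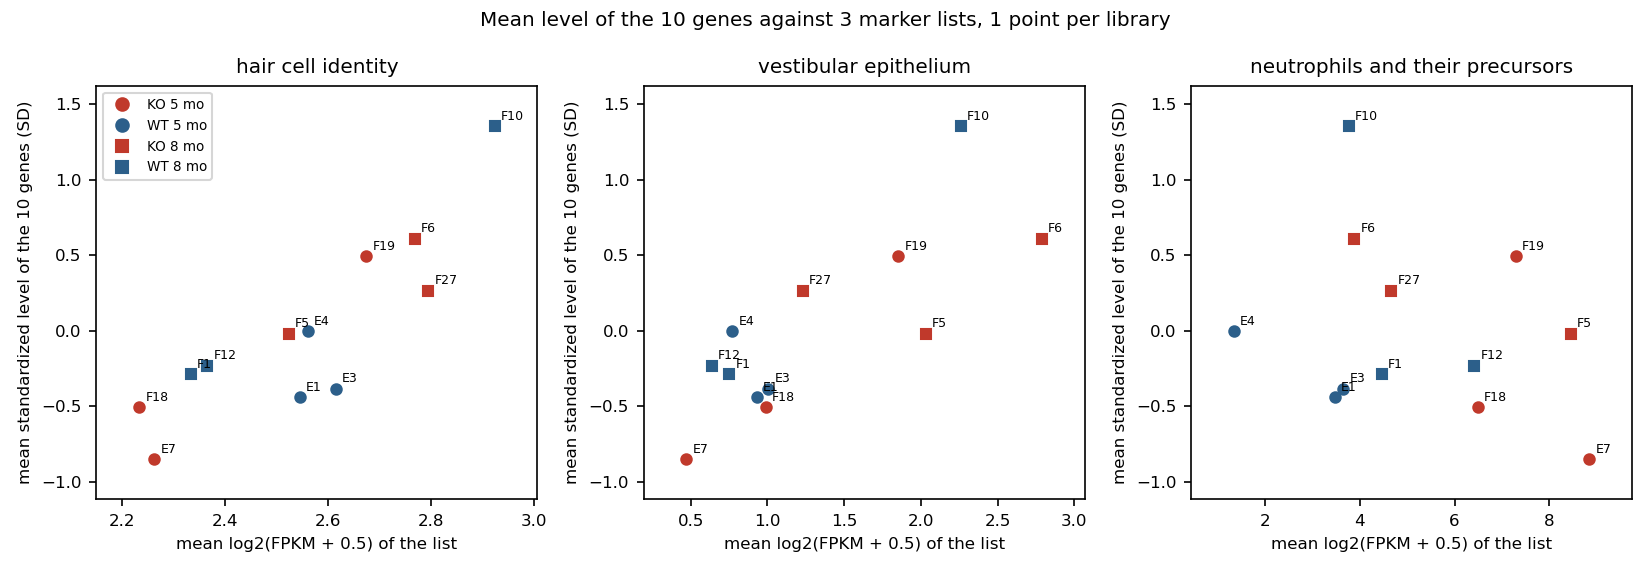
Mean standardized level of the 10 genes (y axis, in SD) against the mean log2(FPKM + 0.5) of the hair cell identity, vestibular epithelium and neutrophil lists (x axis of each panel), 1 point per library, red for KO and blue for WT, circles for 5 months and squares for 8 months. The points rise from E7 and F18 to F10 in the first 2 panels (r = 0.86 and 0.80) and not in the third (r = −0.29).

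By the same measure, the gene most like the mean of the 10 among 16267 others was Pou4f3, the transcription factor gene of hair cell survival and one of the 12 identity genes, with r = 0.94 over the 12 libraries and 0.99 after group means were subtracted. The next were Klc3 (0.94 and 0.95), Msi1 (0.94 and 0.96), Kif19a (0.94 and 0.96), Cldn23 (0.93 and 0.93), Mia (0.91 and 0.91), Otog (0.91 and 0.96) and Marveld3 (0.91 and 0.88). They encode a kinesin light chain, an RNA-binding protein, a kinesin of ciliary tips, a claudin, a secreted cartilage protein, otogelin of the inner ear gels and a tight junction protein. Otog begins 2497 bases from Ush1c on the opposite strand. Otof stood at rank 22, and of the other hair bundle genes Espn, Loxhd1, Kncn and Fscn2 stood at ranks 16, 17, 19 and 30.

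Because the mean of the 12 hair cell identity genes differed between libraries, each member was also set against it, as its log2 level minus that mean in the same library. In KO against WT at 5 months, 11 of these 12 genes were below 0 (median change −0.22), where 44.7% of all genes were above 0. Of the 12, 0 had an unadjusted limma p under 0.05. Gfi1 was the gene above 0, at 9.44, 6.14 and 10.6 FPKM in E7, F18 and F19, against 6.66, 7.90 and 6.06 in E1, E3 and E4. Barhl1 was at 1.78 FPKM in E1, the library with Gabra6, and at 0.393 to 0.934 elsewhere. Whether cells other than hair cells gave part of the list mean was not tested. Subtracting a lower list mean raises every gene, and by the relative measure 79.0% of all genes and 8 of the 10 members were above 0. What this measure adds to the Myo7a difference by level is thus the lower list mean. The relative level of Myo7a was 0.38, 0.13 and 0.24 in E7, F18 and F19, against −0.71, −0.72 and −0.65 in E1, E3 and E4. The groups did not overlap and differed by 0.94 on the log2 scale (exact p = 0.1). At 8 months it was 0.022, −0.16 and −0.29 in F5, F6 and F27 and −0.20, −0.26 and −0.18 in F1, F10 and F12, a difference of 0.071 (exact p = 0.600) with the groups mixed. Over both ages the difference was 0.51 (exact p = 0.0300), and the p was not under 0.05 in 1 of 16 alternatives (exact p = 0.0600 without F5).

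By the same relative measure over both ages, Ush1c was higher in KO by 0.27 (exact p = 0.0400) and Clrn1 differed by −0.15 (exact p = 0.0400). These are 3 of 10 members, beside 2.29% of all genes set against the same list, where genes of other cells are included. By level, the same exact test gave 15.1% of all genes. The subtraction can add the spread of the list to genes of other cells and remove shared spread from hair cell genes. The shares of all genes by this measure, wherever given, are thus no expected share for hair cell genes. Ush1c and Clrn1 had no p under 0.05 in 11 and 10 of 16 alternatives, with highest values of 0.0950 and 0.105. For Ush1c these were a pseudocount of 1 and leaving out any library but E7 and F10, and for Clrn1 a pseudocount of 0.1 and leaving out any library but E1, F18 and F10. At 8 months the relative level of Clrn1 was −0.65, −0.70 and −0.66 in KO and −0.36, −0.62 and −0.36 in WT, and that of Pcdh15 −2.18, −2.35 and −2.24 in KO and −1.70, −2.06 and −1.92 in WT. At 5 months Lhfpl5 was the other member without overlap (0.22, exact p = 0.1), which makes 2 of 10, beside 14.6% of all genes by the same measure. At 8 months Clrn1 and Pcdh15 were lower in every KO library (−0.22 and −0.36, exact p = 0.1 each), as Tmc1 was higher (0.12, exact p = 0.1), 3 of 10 beside 3.5% of all genes. For 8 against 5 months over both genotypes, Ush1c was the member with an exact p under 0.05 (0.27, p = 0.0450), 1 of 10 against 5.27% of all genes, and it lost this in 11 of 16 alternatives. For 8 against 5 months in KO, 3 of 10 members were above 0 by this measure and 8 of 10 by level, beside 8.72% of all genes above 0 by this measure. Myo7a (−0.39), Cdh23 (−0.41), Pcdh15 (−0.30) and Clrn1 (−0.18) were lower without overlap (exact p = 0.1 each), 4 of 10 beside 18.2% of all genes. Of the 12 identity genes, 10 were themselves above 0 in this comparison, with a median log2 change of 0.28. By level these 4 members differed by −0.088, −0.11, 0.0018 and 0.12, so their lower relative values go with a higher list mean. In WT, Myo7a (0.48) and Lhfpl5 (0.33) were higher without overlap (exact p = 0.1 each), 2 of 10 beside 2.96% of all genes. With the hair cell level as a covariate in the limma fit, Myo7a was called at 5 months (0.91 ± 0.10, adjusted p = 0.0259) and averaged over both ages (0.50 ± 0.068, adjusted p = 0.0400). Over all alternatives its adjusted p ran from 0.0259 to 0.514 at 5 months and from 0.0400 to 0.380 averaged, and no other member was called under any.

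**Figure D5:**
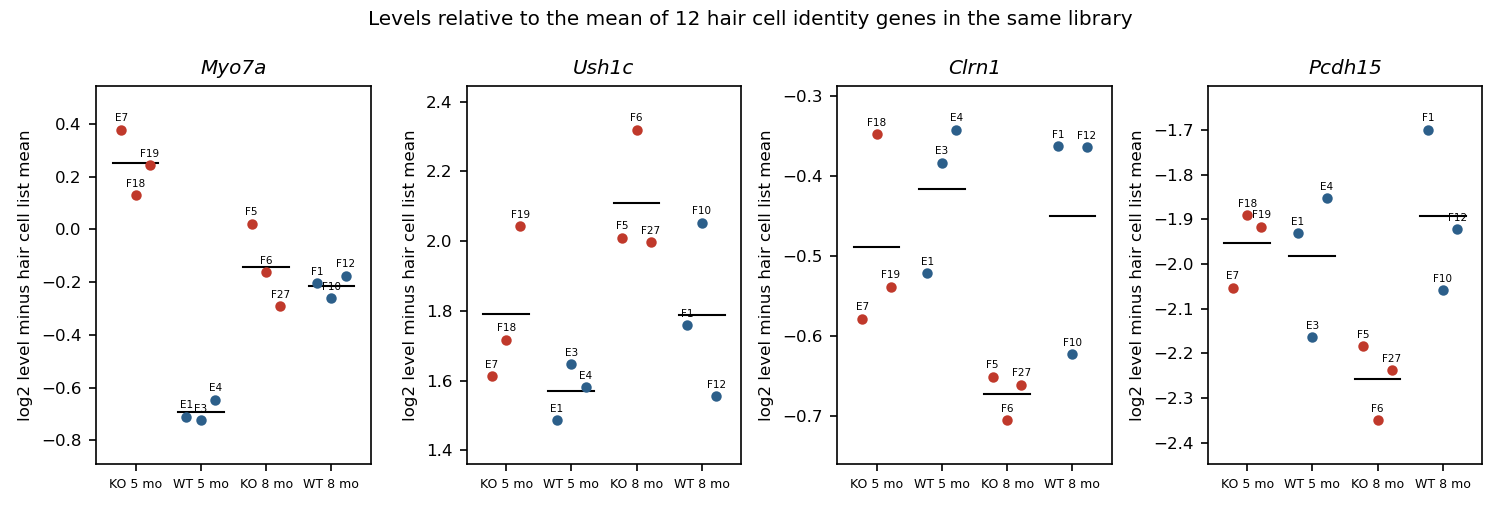
Log2 level of Myo7a, Ush1c, Clrn1 and Pcdh15 minus the mean log2 level of 12 hair cell identity genes in the same library (y axis), for KO and WT at 5 months and KO and WT at 8 months (x axis). Points are libraries named by animal code and lines are group means. For Myo7a the WT libraries at 5 months lie at −0.72 to −0.65, apart from all 9 others.

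Markers of blood cells moved with genotype at 5 months, as they did with age in WT, and are set beside Myo7a here. All 12 neutrophil markers were above 0 in KO against WT at 5 months, with a median log2 change of 5.00 and mean levels of 6.49 to 8.85 in KO and 1.34 to 3.65 in WT, and all 8 B cell markers were above 0 with a median of 2.19. Over the 12 libraries Myo7a had r = 0.60 with the neutrophil list and 0.61 with the B cell list, and after group means were subtracted −0.16 and 0.16, values given as a description. With the neutrophil level as a covariate, Myo7a differed by 0.85 ± 0.26 at 5 months (limma adjusted p = 0.514), and without E7 and F5, the libraries with the highest neutrophil levels, left out together after the data were seen, by 0.76 ± 0.20 (limma adjusted p = 0.230). At 5 months the neutrophil level and genotype do not overlap and cannot be told apart.

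Other genes of the hair bundle were read as a list of 39 beside the 10 members, of which 35 passed the filter of a mean of 0.5 FPKM. Limma called 0 of the 35 in each of the 3 genotype comparisons. Averaged over both ages their median change was 0.010, with an unadjusted p under 0.05 for 3 that were higher and 2 that were lower, beside 7.75% and 9.66% of all genes. At 5 months the median was −0.083 with 22 of 35 below 0, and at 8 months 0.074 with 22 of 35 above 0. Groups without overlap were found at 5 months for 1 of 35 with KO higher and 2 with KO lower, beside 11.3% and 13.8% of all genes. At 8 months they were found for 1 of 35, beside 10.3% of all genes.

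The 3 that were higher were Capzb, a subunit of actin capping protein (0.12 ± 0.040, unadjusted p = 0.0140), Myo1c, a myosin linked to channel adaptation (0.095 ± 0.040, unadjusted p = 0.0379), and Triobp, which bundles actin in stereocilia rootlets (0.20 ± 0.087, unadjusted p = 0.0471). Capzb measured 162, 144 and 148 FPKM in KO, against 136, 145 and 139 in WT at 5 months, and 169, 166 and 160 in KO and 151, 152 and 150 in WT at 8 months. It is made by most cell types, as are Myo1c and Triobp. The 2 that were lower were Pdzd7, a scaffold of the ankle links (−0.39 ± 0.14, unadjusted p = 0.0184), and Atp2b2, the calcium pump of stereocilia (−0.41 ± 0.15, unadjusted p = 0.0213). Pdzd7 measured 3.82, 2.47 and 3.25 FPKM in KO, against 4.99, 4.29 and 4.53 in WT at 5 months, without overlap, and 3.39, 3.74 and 4.87 in KO and 3.65, 6.13 and 5.55 in WT at 8 months, with overlap. Atp2b2, which cerebellar neurons make as well, measured 19.3, 18 and 22.9 FPKM in KO, against 41.8, 22.2 and 24.7 in WT at 5 months, where 41.8 is E1, the library with Gabra6. None of the 5 passed adjustment, with adjusted p of 0.223 to 0.282. The most abundant of the list after Capzb were Rdx, which encodes radixin (46.1 FPKM on average, change −0.024 ± 0.046), and Gnai3, a G protein subunit of bundle orientation (43.4 FPKM, 0.023 ± 0.072). Of the 4 under the filter, Tmc2, the channel subunit of immature and vestibular hair cells, averaged 0.433 FPKM and was at 0.718 in F19, 0.759 in F10, 0.730 in F6, 0.506 in F27 and 0.473 in F5, against 0.257 to 0.316 in the other 7.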

How the data were processed

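Polyadenylated RNA of cochleae separated from the vestibules was sequenced with a stranded kit. The authors checked reads with FastQC 0.10.1, aligned them to mm9 by TopHat2 2.0.10, with SAMtools 0.1.19 and Bowtie 1.0.0, and deposited FPKM per gene and library from Cufflinks 2.2.1, with group FPKM from Cuffdiff. In the deposited table of FPKM many decimal points had been displaced, and 55.30% of the values had to be changed. Each point was put back at the place where the mean of the 3 libraries matched the group FPKM within a relative tolerance of 2e-05, which had 1 solution for 95802 of 95804 pairs of gene and group. Of 20000 simulated gene groups 20000 were recovered. Atxn7l1 and Mecom could not be restored and were left out. Another 18 gene names that a spreadsheet had turned into dates were put back. The authors' fold changes, p-values and gene set results were not used.

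The 16277 genes whose mean reached 0.5 FPKM were fitted as log2(FPKM + 0.5), which understates changes of low genes, in 1 model of the 4 groups with limma 3.58.1 (R 4.3.3, variance trend), with Benjamini-Hochberg adjustment at 0.05 over all genes. The fit was tested on simulated data. Exact permutation tests were two-sided (Python 3.11.15, NumPy 2.4.6, SciPy 1.17.1, Matplotlib 3.10.9). Correlations between members used 100000 permutations. Depth per library is unknown, so no counting error could be given.

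The 10 members and all lists were chosen with earlier results of these data known. All members are named. Of 39 other hair bundle genes, those with an unadjusted p under 0.05 averaged over both ages or whose 6 KO and 6 WT values over both ages did not overlap, and the 3 most abundant, are named. The 8 genes with the highest correlation with the mean of the members are named as most alike. Alternatives were other pseudocounts, no filter, other scalings, no variance trend, array weights, covariates for sex, code letter and marker levels, only the 2 groups compared, and leaving out each library.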

Additional observations from a re-analysis of the deposited data

How the results depend on the processing

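No paired analysis was possible because the replicate numbers were given in accession order and the animal codes pair no libraries. No member other than Myo7a was called under any alternative, and Myo7a was called with the hair cell identity level as a covariate. Of the single values under an alternative, 1568 kept direction and side of the threshold, 41 fell short of it, 3 passed it and 101 changed sign. The threshold was an adjusted p of 0.05 for limma and an unadjusted p of 0.05 for the exact tests. Limma called no member in the main fit, so the 41 are all exact tests. Of the 3 that passed, 2 were limma values. Causes were not tested. Depth is unknown, and genes near 1 FPKM, as Cdh23, Pcdh15 and Ush1g are, carry few reads.

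Log2 changes that turned sign were as follows. In 8 against 5 months in KO, Pcdh15 was −0.0018 with a pseudocount of 1, −0.016 with median ratio scaling, −0.039 with array weights, −0.066 with sex, −0.11 with the code letter, −0.12 with the neutrophil level, −0.22 with the hair cell level, −0.062 without E7 and F5 together and −0.14 with the vestibular level, the last 2 alternatives being chosen after seeing the data. In that comparison Lhfpl5 was −0.0054, −0.068 and −0.11 with the neutrophil, hair cell and vestibular levels, and Clrn1 −0.085 and −0.015 with the hair cell and vestibular levels. With quantile normalization, Cdh23 and Tmie were −0.020 and −0.027 for KO against WT at 5 months, Cdh23 −0.032 averaged, Pcdh15 0.049 for the difference between ages, and Cdh23, Pcdh15 and Ush1g −0.054, −0.029 and −0.050 for 8 against 5 months in WT. With array weights the averaged Tmc1 and Cib2 were 0.0085 and −0.066, and with sex Tmie was −0.028 at 5 months. With the code letter, Ush1c was −0.27 at 5 months, Cdh23, Ush1g and Cib2 were −0.028, −0.059 and −0.016 averaged, Pcdh15 was 0.17 for the difference between ages, and Cdh23, Pcdh15, Ush1c and Ush1g were −0.088, −0.29, −0.27 and −0.27 for 8 against 5 months in WT. Only KO at 5 months holds both letters, so the letter moves these values by the difference of F18 and F19 from E7. No WT group informs it, so these values do not tell age from letter in WT. The counts of called genes with the letter below have the same limit.

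With the neutrophil level, Pcdh15, Ush1g, Tmc1, Tmie and Clrn1 were 0.16, 0.21, 0.031, −0.14 and 0.038 at 5 months, Pcdh15, Tmc1, Lhfpl5 and Clrn1 0.0023, 0.19, 0.10 and 0.0099 averaged, Ush1c, Tmie and Clrn1 −0.057, 0.033 and −0.056 for the difference between ages, and Clrn1 0.061 for age in WT. With the hair cell level, Ush1g was 0.039 at 5 months, and Ush1c and Clrn1 −0.14 and −0.041 for the difference. Without E7 and F5 together, Ush1g and Tmie were 0.0028 and −0.0020 at 5 months, Clrn1 0.0083 at 8 months and Tmc1 0.078 averaged. With the vestibular level, Ush1c, Tmie and Lhfpl5 were −0.063, −0.011 and −0.013 at 5 months, Cdh23 and Ush1g −0.036 and −0.074 averaged, and Ush1g −0.039 for age in WT.

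Leaving out 1 library, these changes crossed 0. At 5 months the ranges were −0.055 to 0.43 for Cib2, −0.059 to 0.15 for Lhfpl5, −0.10 to 0.070 for Tmie, −0.23 to 0.19 for Ush1c and −0.22 to 0.0028 for Ush1g. At 8 months they were −0.16 to 0.079 for Cdh23 and −0.13 to 0.038 for Clrn1. Averaged they were −0.038 to 0.081 for Cdh23, −0.093 to 0.15 for Cib2, −0.10 to 0.072 for Tmc1 and −0.014 to 0.13 for Ush1g. For the difference they were −0.17 to 0.11 for Pcdh15 and −0.19 to 0.024 for Tmie. For age in KO they were −0.13 to 0.35 for Cib2, −0.12 to 0.22 for Lhfpl5, −0.23 to 0.051 for Myo7a and −0.11 to 0.16 for Pcdh15, and in WT −0.10 to 0.14 for Cdh23, −0.053 to 0.16 for Pcdh15, −0.14 to 0.39 for Ush1c and −0.13 to 0.15 for Ush1g.

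Of all genes, limma called 11 at 5 months, but 5 with no variance trend, 17 with array weights, 7 with sex, 18 with the code letter, 3 with the neutrophil level, 5 with the hair cell level, 4 with the vestibular level, 6 from the 2 groups alone, and 4 (without E7, F19 or F12) to 16 (without F5) leaving out 1 library. At 8 months it called 2, but 5 without E7 and F5, 4 from the 2 groups alone and 2 to 6 (without F10) leaving out 1. Averaged it called 13, but 22 with array weights, 25 with the code letter, 3 with the neutrophil level, 5 without E7 and F5, 4 with the vestibular level and 3 (without E3 or without E7) to 22 (without F27) leaving out 1. For the difference it called 1, but 2 with a pseudocount of 0.1, 13 with the code letter, 4 without E7 and F5, 0 to 4 leaving out 1, and 0 with a pseudocount of 1, no filter, median ratio scaling, no variance trend, sex, or the neutrophil, hair cell or vestibular level. For age in KO it called 0, but 1 with no filter, 4 without E7 and F5, 1 from the 2 groups alone and 0 to 3 leaving out 1. For age in WT it called 2, but 12 with the code letter, 1 with the neutrophil level and 1 to 5 leaving out 1.

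By the exact tests, leaving out 1 library gave 1 to 2 members for KO against WT and 0 to 2 for age, and relative to the hair cell list 0 to 3 and 0 to 1. The relative count for age was 0 with a pseudocount of 1 and 0 with the markers of at least 1 FPKM.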
